A study of Mus musculus with 20 samples.

Results

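Inflammasome and proinflammatory cytokine genes were followed in microglia and astrocytes sorted from mouse brain 7 days after traumatic brain injury, to ask whether transcripts of classical inflammation were still raised at that time. The 10 genes were taken by symbol from the 39017 identifiers of the deposited count table: the cytokines Il1a, Il1b, Il18 and Tnf, the antagonist Il1rn, and the inflammasome genes Nlrp3, Pycard, Casp1, Casp4 and Gsdmd. All mice were adult males of the strain C57BL/6 (C57BL/6J in the study's methods) with a craniectomy over the left parietal bone. They received either lateral fluid percussion injury (FPI), in which a pulse of fluid strikes the exposed dura, or a sham procedure in which the animal was connected to the device without a pulse. The ipsilateral forebrain was digested with papain at 37 °C, and microglia (CD11b+ with intermediate CD45) and astrocytes (ACSA-2+) were isolated by flow cytometry. Each of the 4 groups (sham and FPI microglia, sham and FPI astrocytes) had 5 libraries, each from a single animal, with 5623349 to 13110857 counts per library.

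IL-1α, IL-1β, IL-18 and TNF are the cytokines that start and spread classical inflammation, and in the brain microglia are a main source of most of them. IL-1β and IL-18 are made as inactive precursors. An inflammasome assembles when a sensor such as NLRP3 recruits the adaptor ASC, encoded by Pycard, and the protease caspase-1, which then cuts both precursors and gasdermin D, the pore-forming protein through which they leave the cell. NF-κB signalling raises the transcripts of Il1b and Nlrp3 before this step, which is known as priming. Assembly, cleavage and release happen at the protein level and are not seen in read counts. On GRCm38, Il1a (chr2:129299610-129309972) and Il1b (chr2:129364570-129371139) are neighbours on the minus strand of chromosome 2, which also carries Il1rn, and Casp1 (chr9:5298517-5307265) and Casp4 (chr9:5308828-5336783) are neighbours on the plus strand of chromosome 9, which also carries Il18 (chr9:50554827-50581840). Tnf is at chr17:35199381-35202007, Nlrp3 at chr11:59541568-59566956, Pycard at chr7:127989708-127993867 and Gsdmd at chr15:75862327-75867408.

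The sorted cells carried their own markers. Summed over 10 microglia markers, levels were 18032 to 30048 CPM (counts scaled to a common library size with TMM factors) in microglia libraries and 104 to 267 CPM in astrocyte libraries. The TMM factors for CPM were computed within each cell type, so CPM values compared between cell types are approximate. The 10 astrocyte markers summed to 10679 to 34285 CPM in astrocyte libraries, which also held 1738 to 18380 CPM of oligodendrocyte markers. Microglia replicates 1 to 3 and replicates 4 and 5 bear different series of library names, with sham and FPI libraries in both, and this is the only batch visible in the labels. The 2 series stood apart in 14 immediate early and dissociation genes, whose sum was 3535 to 4387 CPM in replicates 1 to 3 and 1585 to 2515 CPM in replicates 4 and 5. The name of FPI astrocyte library 5 ends like those of microglia libraries and repeats an animal number used for FPI astrocyte library 2. The FPI astrocyte libraries may thus come from fewer than 5 animals. By the numbers in the names, both cell types came from the same animal in 3 cases.

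The promoters of 3 genes are shown for reference to the results: Il1rn, which rose in FPI microglia, Il1b, its agonist counterpart, and Csf1, a cytokine gene that also rose. RefSeq windows on GRCm38.p6 were matched by symbol for 9 of the 10 genes. Each sequence is the 250 bases before a start, 5′ to 3′ on the strand of the gene, with capitals where the letters match, on either strand, the NF-κB consensus, the AP-1 site (TGANTCA), the ISRE core (GAAA, any 2 bases, GAAA) or a PU.1-like site (GAGGAA). Il1rn has an upstream start (chr2:24336610-24336859, plus strand) and downstream starts, 1 of which is printed (chr2:24345041-24345290, plus strand). They are followed by Il1b (chr2:129371140-129371389, minus strand) and Csf1 (chr3:107760470-107760719, minus strand).
Il1rn upstream: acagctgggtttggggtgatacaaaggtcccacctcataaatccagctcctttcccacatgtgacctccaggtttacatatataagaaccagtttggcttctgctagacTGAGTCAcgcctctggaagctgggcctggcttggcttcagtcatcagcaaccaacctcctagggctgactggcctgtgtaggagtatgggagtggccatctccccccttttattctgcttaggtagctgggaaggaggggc
Il1rn downstream: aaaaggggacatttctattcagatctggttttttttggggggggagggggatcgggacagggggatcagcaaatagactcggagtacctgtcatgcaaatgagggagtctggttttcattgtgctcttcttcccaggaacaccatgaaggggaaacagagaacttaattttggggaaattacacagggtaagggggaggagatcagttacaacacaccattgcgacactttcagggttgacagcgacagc
Il1b: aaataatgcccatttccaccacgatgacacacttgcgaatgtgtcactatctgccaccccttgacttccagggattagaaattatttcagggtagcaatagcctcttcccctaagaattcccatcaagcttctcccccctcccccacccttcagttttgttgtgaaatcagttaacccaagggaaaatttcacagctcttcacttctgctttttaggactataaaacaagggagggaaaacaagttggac
Csf1: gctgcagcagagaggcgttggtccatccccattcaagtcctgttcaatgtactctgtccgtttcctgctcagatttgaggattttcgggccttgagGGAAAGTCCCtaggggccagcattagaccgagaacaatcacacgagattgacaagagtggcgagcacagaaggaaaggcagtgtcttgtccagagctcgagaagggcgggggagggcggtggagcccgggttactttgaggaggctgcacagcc
The upstream Il1rn window held 1 AP-1 match, 141 bases before the start, and 6.75% of all 32851 windows of this length held that motif. Csf1 held 1 NF-κB match, 154 bases before the start, and 7.25% of all windows held one. The printed downstream Il1rn window and the Il1b window held none of the 4 motifs. Among the 9 genes, NF-κB matches were found for Casp4 and Nlrp3, AP-1 matches for Il1a and Il1rn, and PU.1-like matches for Casp1, Il1a, Nlrp3, Pycard and Tnf (23.3% of all windows). The ISRE core was found for 0 of the 9 (2.98% of all windows). Counts per gene do not tell the starts of Il1rn apart.

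In microglia, 1 of the 10 genes rose 7 days after FPI and 0 fell, and the gene that rose was Il1rn, which encodes the IL-1 receptor antagonist. All 10 passed the filter on low counts. Over all 12143 genes tested, 2.13% were called higher and 0.214% lower, where a call needed an adjusted p below 0.1 and an absolute log2 fold change above 0.6 in edgeR's quasi-likelihood test. The log2 fold changes of the 10 genes had a median of 0.12, beside -0.01 over all tested genes, and 6 were positive and 4 negative. Il1rn was the only 1 of the 10 with an unadjusted p below 0.05 in edgeR, and DESeq2 also called 1 of the 10. In bulk libraries, fewer cells of a type and less RNA per cell cannot be told apart.

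**Figure D1:**
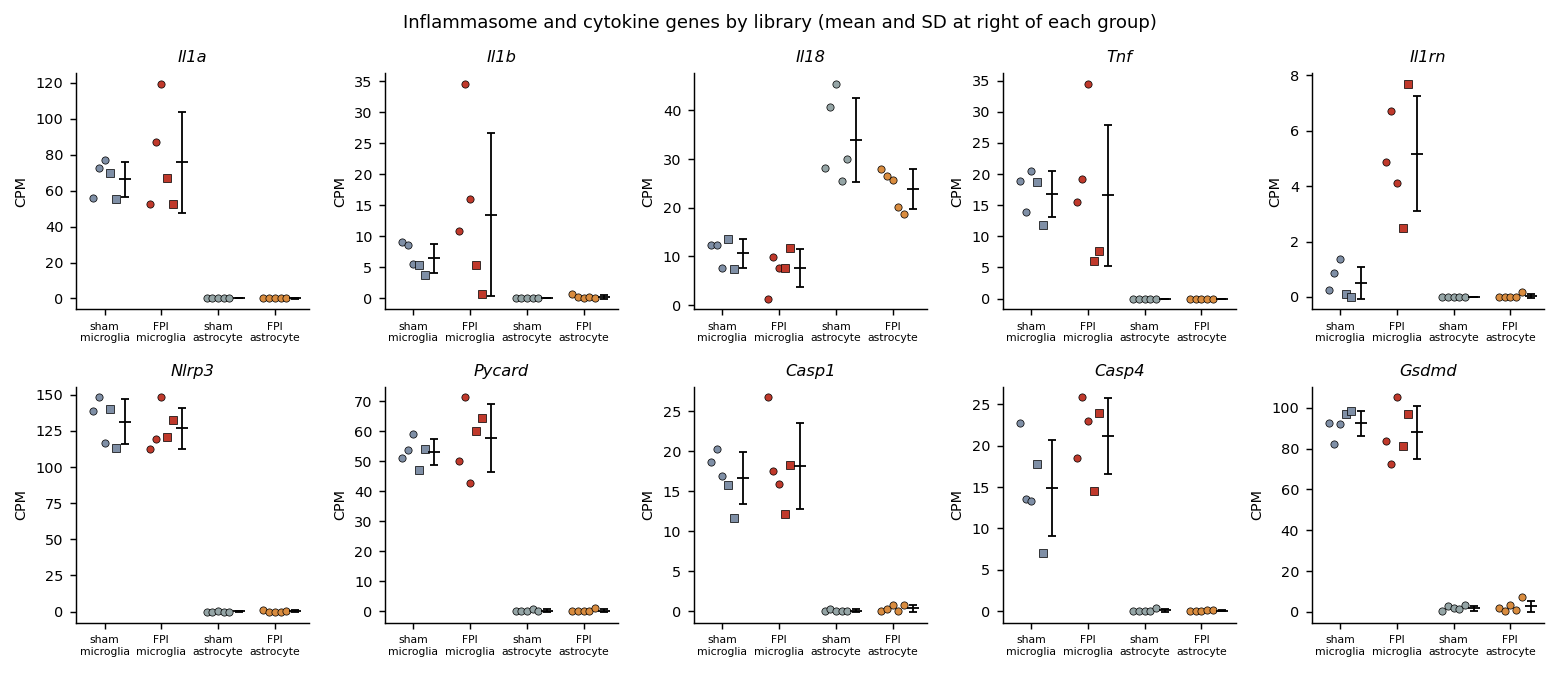
Level of each of the 10 genes in CPM in the 20 libraries, by group; squares are microglia replicates 4 and 5, circles all other libraries, and the mean and SD stand to the right of the points. Il1rn lies between 2.50 and 7.69 CPM in FPI microglia and between 0 and 1.37 CPM in sham microglia, while the other 9 genes overlap between sham and FPI microglia, and Il18 is the only one of the 10 with higher levels in astrocytes.

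Il1rn (chr2:24336853-24351494 on GRCm38, plus strand) encodes a protein that occupies the IL-1 receptor without signalling. Its level in sham microglia libraries 1 to 5 was 0.259, 0.849, 1.37, 0.112 and 0 CPM. In FPI microglia libraries 1 to 5 it was 4.86, 6.72, 4.12, 2.50 and 7.69 CPM. All 5 FPI libraries were higher than any sham library, which held for 2.11% of tested genes. These levels rested on few reads, 27 over the sham libraries and 202 over the FPI libraries. The difference on the log2 scale was 3.20 ± 0.75 (SE, n = 5 per group, edgeR adjusted p = 0.0277), with a 95% interval of 1.64 to 4.77. The groups also did not overlap within either name series, with 0.259 to 1.37 CPM in sham and 4.12 to 6.72 CPM in FPI replicates 1 to 3, and 0 to 0.112 CPM against 2.50 to 7.69 CPM in replicates 4 and 5. With the fewer libraries of a single series the edgeR call was lost, at a log2 fold change of 2.62 (adjusted p = 0.145) in replicates 1 to 3 and 5.90 (adjusted p = 0.118) in replicates 4 and 5. It was also lost when all 20 libraries shared 1 fit in edgeR (log2 fold change 3.20, adjusted p = 0.119).

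Neutrophils, monocytes and macrophages also transcribe Il1rn. Ly6g, a defining marker of neutrophils, and Ly6c2, a defining marker of inflammatory monocytes, were at 0 in all 10 microglia libraries. Ccr2 ranged from 2.35 to 6.85 CPM in sham and 0.156 to 9.20 CPM in FPI microglia. The whole monocyte list of 10 genes summed to 24.2 to 54.3 CPM in sham and 40.8 to 212 CPM in FPI microglia. All 5 tested genes of the list had positive log2 fold changes, with a median of 1.14 beside -0.01 over all tested genes. Of these 2 were called, Fn1 and Cd44, a matrix protein and an adhesion receptor found on many cell types. Fn1 alone was at 15.9 to 40.1 CPM in sham and 31.8 to 169 CPM in FPI microglia, and so made much of the sum. It was at 10.8 to 154 CPM in sham and 79.4 to 215 CPM in FPI astrocytes. Plac8, also on the list, had 2 reads in sham and 38 reads in FPI microglia. The 10 neutrophil markers summed to 482 to 663 CPM in sham and 542 to 714 CPM in FPI microglia, with 8 under the filter and 0 of 2 tested called. S100a8 was at most 1.58 CPM and S100a9 at most 8.94 CPM in any microglia library, so they made little of this sum. The 10 border macrophage markers summed to 865 to 1412 CPM in sham and 825 to 1203 CPM in FPI microglia, with 0 of 9 called. The part of monocytes in the Il1rn result was not tested.

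Il1b encodes the cytokine that the Il1rn product opposes, and it did not pass the test. In sham microglia its level was 9.05, 8.63, 5.48, 5.36 and 3.69 CPM in libraries 1 to 5. In FPI microglia it was 10.8, 34.6, 16.0, 5.32 and 0.675 CPM. FPI libraries 1 to 3 lay above all sham libraries, library 4 lay among them and library 5 below them. FPI over sham gave a log2 fold change of 1.05 ± 0.57 (SE, n = 5 per group, edgeR adjusted p = 0.529), with a 95% interval of -0.14 to 2.25. FPI library 2 carried much of this value, which was 0.34 without it (adjusted p = 0.937, edgeR). Within the name series the edgeR log2 fold change was 1.39 ± 0.41 (adjusted p = 0.108) in replicates 1 to 3, where all FPI libraries lay above all sham libraries, and -0.60 ± 0.94 (adjusted p = 0.866) in replicates 4 and 5. The difference between the series was 2.03 ± 0.86 (edgeR adjusted p = 0.431), and for this contrast 0 of the 10 genes were called in edgeR or DESeq2, beside 0.0144% of 13851 genes in edgeR, and 2 (Il1b and Tnf) had an unadjusted p below 0.05. The counts of Il1b may include reads of Il1bos, which overlaps it on the opposite strand, since the use of strand in counting is not given in the sources used here.

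Tnf, a cytokine that acts through its own receptors and NF-κB, also had its extreme values split by series. Its level was 18.9, 13.9, 20.6, 18.7 and 11.9 CPM in sham microglia and 15.5, 19.2, 34.5, 6.10 and 7.69 CPM in FPI microglia. The highest value of the 10 libraries was FPI library 3, and the lowest were FPI libraries 4 and 5. The log2 fold change was -0.01 ± 0.35 (SE, n = 5 per group, edgeR adjusted p = 0.995), with a 95% interval of -0.75 to 0.73. It was 0.37 ± 0.32 in replicates 1 to 3 and -1.14 ± 0.45 in replicates 4 and 5 (edgeR adjusted p = 0.71 and 0.321), and the difference of 1.53 ± 0.53 was not called (edgeR adjusted p = 0.346).

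Il1a was among the highest of the 10 genes in microglia per kilobase of annotated exon. Its level was 56.0, 72.9, 76.9, 69.9 and 55.6 CPM in sham and 52.7, 87.3, 119, 67.3 and 52.5 CPM in FPI microglia, so the FPI libraries lay on both sides of the sham libraries. Its log2 fold change was 0.19 ± 0.20 (SE, edgeR adjusted p = 0.821, 95% interval -0.22 to 0.61), and -0.03 without FPI library 3. Gm14023 overlaps Il1a on the opposite strand. Il18, whose precursor is held in many cell types without injury, had 12.4, 12.3, 7.54, 13.5 and 7.39 CPM in sham and 1.34, 9.95, 7.53, 7.51 and 11.7 CPM in FPI microglia. FPI library 1 stood far below the other 9 microglia libraries. For Il18 the log2 fold change was -0.49 ± 0.41 (SE, edgeR adjusted p = 0.763, 95% interval -1.34 to 0.36).

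Of the 5 inflammasome genes 0 were called in microglia, where 2.13% of all tested genes were called higher and 0.214% lower. Nlrp3, the sensor, had 139, 148, 117, 140 and 113 CPM in sham and 113, 119, 148, 121 and 133 CPM in FPI microglia, and the 2 ranges nearly coincided. Its log2 fold change was -0.05 ± 0.12 (SE, edgeR adjusted p = 0.937), with a 95% interval of -0.31 to 0.20. Pycard, the adaptor, had 47.3 to 59.1 CPM in sham and 42.7 to 71.4 CPM in FPI microglia, at a log2 fold change of 0.12 ± 0.15 (95% interval -0.19 to 0.44). Gm45205 overlaps Pycard on the opposite strand. Casp1, the protease, had 11.7 to 20.2 CPM in sham and 12.2 to 26.7 CPM in FPI microglia, at 0.12 ± 0.24 (95% interval -0.37 to 0.61). Gsdmd, the pore protein, had 82.4 to 98.2 CPM and 72.6 to 105 CPM, at -0.07 ± 0.13 (95% interval -0.34 to 0.19). Casp4 encodes caspase-11, which senses intracellular lipopolysaccharide and also cuts gasdermin D. It had 22.8, 13.5, 13.4, 17.8 and 7.00 CPM in sham and 18.5, 25.9, 22.9, 14.6 and 24.0 CPM in FPI microglia, at a log2 fold change of 0.50 ± 0.27 (SE, edgeR adjusted p = 0.517, 95% interval -0.06 to 1.06). In 3 of the 5 FPI libraries Casp4 exceeded every sham library, and the other 2 lay within the sham range.

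**Figure D2:**
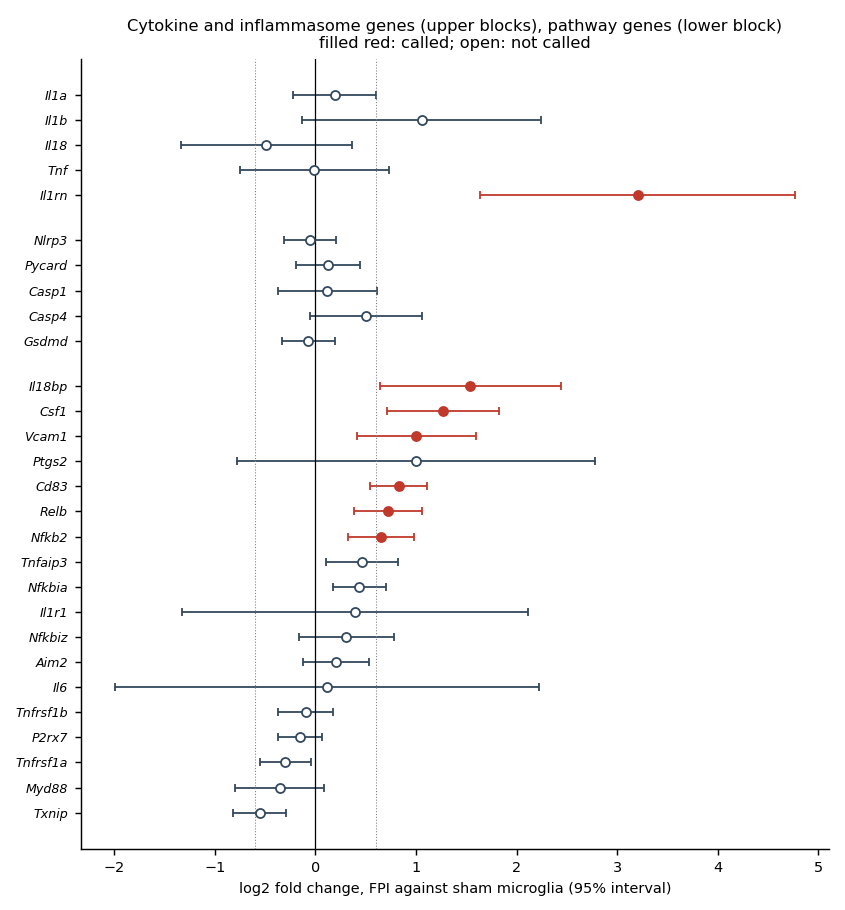
Log2 fold change of FPI over sham in microglia with its 95% interval for the 10 genes and the named pathway genes; filled points were called, and dotted lines mark the fold threshold of 0.6. The interval of Il1rn (1.64 to 4.77) lies above 0, those of the other 9 genes of the set include 0, and Nlrp3 and Gsdmd have narrow intervals while those of Il1b, Il6, Il1r1 and Ptgs2 are wide.

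Levels of different genes were compared only per kilobase of exon. The length was the union of all annotated exons of a gene, which can exceed the length of the transcripts present. It was 3800 bases for Pycard, 3710 for Casp4 and 5535 for Il1rn, so the order and its gaps hold for this measure only. In sham microglia Gsdmd (38.9 CPM per kb), Il1a (33.6) and Nlrp3 (32.4) were the highest, with overlapping neighbours. They were followed, below a gap at Nlrp3, by Pycard (14), Casp1 (11.1), Il18 (10.3) and Tnf (10.2), and then, below a second gap, by Casp4 (4.01) and Il1b (3.38). Il1rn was last, at 0.0936 CPM per kb, and its range did not meet that of Il1b. In FPI microglia Il1a (38.4 CPM per kb), Gsdmd (37) and Nlrp3 (31.2) again did not overlap Pycard (15.2). From Pycard through Casp1 (12.1), Tnf (10.1), Il18 (7.39) and Il1b (7.07) to Casp4 (5.71) each gene overlapped the next, and Il1rn was again last, at 0.935 CPM per kb.

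Astrocytes carried little of this set beyond Il18. At least 1 read was found for 6 of the 10 genes in sham and 9 of the 10 in FPI astrocytes, and 2 passed the filter, Il18 and Gsdmd. In the comparison of FPI with sham astrocytes 0 of the 2 were called in edgeR or DESeq2, where 0.00728% of 13741 tested genes were called in either direction. Il18 had 28.1, 40.7, 45.4, 25.4 and 29.9 CPM in sham and 27.9, 26.4, 25.7, 20.2 and 18.8 CPM in FPI astrocytes. The 2 lowest values were FPI libraries and the 4 highest sham libraries, but the ranges overlapped (0.189% of tested genes had all FPI libraries below all sham libraries). The log2 fold change was -0.51 ± 0.20 (SE, 95% interval -0.94 to -0.08), and it was not called (edgeR adjusted p = 0.999). Its unadjusted p was below 0.05, as for 2.32% of tested genes. In these libraries the oligodendrocyte markers summed to 1738 to 18380 CPM in sham and 3414 to 11663 CPM in FPI astrocytes, and their part in the Il18 levels was not tested. Gsdmd had 2, 34, 17, 13 and 26 reads in sham and 19, 4, 27, 7 and 45 reads in FPI astrocytes, with a log2 fold change of 0.53 ± 0.75 (SE, edgeR adjusted p = 0.999).

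The other 8 genes were under the filter in astrocytes, and fold changes were not fitted for them. Tnf had 0 reads in all 10 astrocyte libraries, and Il1a and Il1rn had 1 read each. Il1b had 0 reads in sham and 6, 2, 0, 2 and 0 reads in FPI astrocytes, Nlrp3 had 7 reads in 1 sham library and 11 and 3 reads in 2 FPI libraries, and Casp4 had 5 reads in all. Changes in these genes were not detectable at this depth. In the same libraries all 7 tested microglia markers (of 10 listed) had positive log2 fold changes in FPI astrocytes, with a median of 2.96 beside -0.01 over all tested genes, 4 at an unadjusted p below 0.05 and 0 called. Cx3cr1, for example, was at 0.251 to 1.56 CPM in sham and 2.80 to 11.8 CPM in FPI astrocytes, without overlap, and the sum of the 10 markers was 104 to 177 CPM in sham and 123 to 267 CPM in FPI astrocytes. The part of microglial RNA in these reads was not tested.

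Between the cell types the set differed widely: 9 of the 10 genes were higher in microglia and 1, Il18, was higher in astrocytes. Over 15077 tested genes, 27.1% were called higher in microglia and 37.2% in astrocytes. Microglia exceeded astrocytes by a log2 difference of 9.04 ± 0.43 (SE) for Nlrp3, 7.93 ± 0.48 for Casp4, 7.81 ± 0.41 for Pycard, 6.40 ± 0.47 for Casp1 and 5.28 ± 0.35 for Gsdmd. Except for Gsdmd these values rested on 5 to 21 astrocyte reads, and leaving out 1 astrocyte library moved them by more than 1.5 times. The log2 difference was then 10.80 (sham 3) or 9.86 (FPI 1) for Nlrp3, 9.18 (sham 5) for Casp4, 8.58 (sham 4) or 8.63 (FPI 5) for Pycard and 7.14 (sham 2) for Casp1, and all 10 genes stayed called in each of the 20 fits. Il18 was lower in microglia by a log2 difference of -1.68 ± 0.25 (SE, n = 10 per cell type, edgeR adjusted p = 3.18e-06). For genes with few or no astrocyte reads in a group, ratios of counts per TMM-scaled library total are given instead. Tnf (1422 microglia reads and 0 astrocyte reads) was at least 499-fold higher in microglia, with 3 counts over the 10 astrocyte libraries as the floor. Il1a (6017 reads and 1 read) had a ratio of 6332, with a 95% counting interval of 1136 to 250126, and Il1rn (229 reads and 1 read) a ratio of 241, with an interval of 42.8 to 9559. Il1b (849 reads and 10 reads, all 10 in FPI astrocytes) had a ratio of 89.3, with an interval of 48.3 to 187. A difference in the effect of FPI between the cell types could be tested for the 2 genes that passed the filter in both, and neither was called in edgeR or DESeq2 (0.199% of 15077 genes called in edgeR). The other 8 genes had too few astrocyte reads for this test. For Gsdmd the difference was -0.53 ± 0.64 (SE, edgeR adjusted p = 0.982). For Il18, whose log2 fold changes were -0.49 in microglia and -0.51 in astrocytes, the difference was 0.03 ± 0.50 (edgeR adjusted p = 1.00).

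The surrounding pathways were read from 5 lists with 110 genes, of which 108 were in the table and 76 were tested in microglia. Of these 6 rose and 0 fell, where 2.13% of all tested genes were called higher and 0.214% lower, with a median log2 fold change of 0.11 beside -0.01 over all tested genes. By list, 0 of 16 inflammasome sensors and regulators, 1 of 14 genes of IL-1 and IL-18 receptors and signalling, 0 of 16 genes of TNF receptors and signalling, 4 of 22 NF-κB subunits, feedback genes and targets and 1 of 8 other cytokines rose. In astrocytes 0 of 61 tested pathway genes were called in edgeR or DESeq2, and 1 had an unadjusted p below 0.05 in edgeR. Of all 13741 genes tested there, 1 was called in edgeR and 23 in DESeq2, and 2.32% had an unadjusted p below 0.05 in edgeR. The pathway counts thus do not set these genes apart from other genes.

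Il18bp, which encodes a soluble protein that binds and neutralises IL-18, was the receptor and signalling gene that rose. It had 2.59, 2.34, 1.48, 4.58 and 1.75 CPM in sham and 5.47, 5.47, 10, 8.76 and 7.69 CPM in FPI microglia, without overlap. It rose by 1.54 ± 0.43 on the log2 scale (SE, edgeR adjusted p = 0.0778), and the call was kept in 2 of the 10 fits that left out 1 library, without sham library 4 or FPI library 1. The antagonist of IL-1 and the binding protein of IL-18 were both higher in all FPI libraries than in any sham library, as were 2.11% of tested genes. Numa1 overlaps Il18bp on the opposite strand. Astrocytes also transcribe Il18bp, at 3.88 ± 1.70 CPM (SD, n = 5) in sham and 4.39 ± 2.48 CPM in FPI astrocytes, beside 7.48 ± 2.01 CPM in FPI microglia. The 10 astrocyte markers summed to 251 to 367 CPM in sham and 312 to 625 CPM in FPI microglia. All 9 tested astrocyte markers had positive log2 fold changes in FPI microglia, with a median of 0.63 beside -0.01 over all tested genes, 5 at an unadjusted p below 0.05 and 1, Gfap, called. The part of astrocyte RNA in this result was not tested.

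Among NF-κB genes the 4 that rose were Cd83, Relb, Nfkb2 and Vcam1. Cd83, a membrane protein of activated myeloid cells, had a mean of 114 ± 19.2 CPM (SD, n = 5) in sham and 203 ± 28.9 CPM in FPI microglia, and its log2 fold change was 0.83 ± 0.14 (SE, edgeR adjusted p = 0.00158). Relb and Nfkb2 encode the subunits of the non-canonical NF-κB pathway. Relb had 25.8 ± 3.87 CPM in sham and 42.4 ± 3.81 CPM in FPI microglia (log2 fold change 0.72 ± 0.16, edgeR adjusted p = 0.0212), and Nfkb2 41.5 ± 4.69 and 65.1 ± 13.4 CPM (0.65 ± 0.16, edgeR adjusted p = 0.0360). Vcam1, an adhesion molecule, had 9.61 ± 3.62 and 19.5 ± 4.01 CPM (1.00 ± 0.28, edgeR adjusted p = 0.0819). It was far higher in astrocytes, at 169 ± 89.3 CPM in sham and 142 ± 70.9 CPM in FPI astrocytes. The summed astrocyte markers were 264 to 367 CPM in sham and 374 to 625 CPM in FPI microglia replicates 1 to 3. In replicates 4 and 5 they were 251 to 367 CPM in sham and 312 to 317 CPM in FPI. The log2 fold change of Vcam1 was 0.90 in replicates 1 to 3 and 1.17 in replicates 4 and 5, called in neither. The part of astrocyte RNA in the Vcam1 result was not tested. For these 4 genes all 5 FPI libraries were higher than any sham library, as for 2.11% of tested genes. The 4 are named because they were called on these same values. Leaving out 1 library ended the Nfkb2 call in 4 of 10 fits (sham 1, sham 2, FPI 1 or FPI 3) and the Vcam1 call in 9 of 10 (all but FPI 3), and ended neither the Cd83 nor the Relb call. Nfkb2 and Vcam1 overlap other genes on the opposite strand.

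Csf1, a growth factor for microglia, rose in replicates 1 to 3. It had 38.8, 32.2, 45.3, 52.8 and 64.0 CPM in sham and 128, 123, 186, 67.1 and 52.4 CPM in FPI microglia. The FPI libraries 1 to 3 were the 3 highest of all, and FPI libraries 4 and 5 lay at the level of sham libraries 4 and 5. The log2 fold change was 1.26 ± 0.27 over all libraries (SE, edgeR adjusted p = 0.0124), 1.90 in replicates 1 to 3 (adjusted p = 5.62e-05) and 0.04 in replicates 4 and 5 (adjusted p = 0.971). The difference between the series was called, at 1.87 ± 0.31 (edgeR adjusted p = 0.0215). Csf1 was at 86.2 ± 24.0 CPM in sham and 83.4 ± 22.8 CPM in FPI astrocytes. The summed astrocyte markers were 374 to 625 CPM in FPI microglia replicates 1 to 3 and 312 to 317 CPM in FPI replicates 4 and 5, and their part in the Csf1 result was not tested.

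The remaining named targets, sensors and receptors were not called over all 10 microglia libraries. Nfkbia, which encodes the inhibitor of NF-κB and is induced by it, had a log2 fold change of 0.43 (edgeR adjusted p = 0.0931) and Txnip, a binding partner of NLRP3, one of -0.55 (adjusted p = 0.0203), both short of the fold threshold. Txnip was called lower without sham library 4 (-0.62) or sham library 5 (-0.60). In replicates 1 to 3 alone Txnip (-0.75, edgeR adjusted p = 0.00878) and Myd88 (-0.83, adjusted p = 0.0452) were called lower, as were 98 of 12351 tested genes. In replicates 4 and 5 alone neither was called (-0.24 and 0.47). Txnip was at 440 to 587 CPM in sham and 304 to 401 CPM in FPI microglia, without overlap. Of 12143 tested genes, 135 had all FPI libraries below all sham libraries. Gm15441 overlaps Txnip on the opposite strand. The feedback genes Tnfaip3 (0.47, edgeR adjusted p = 0.227) and Nfkbiz (0.31, adjusted p = 0.728), the TNF receptors Tnfrsf1a (-0.30, adjusted p = 0.302) and Tnfrsf1b (-0.10, adjusted p = 0.874) and the adaptor Myd88 (-0.35, adjusted p = 0.604) were not called, and Acaa1a overlaps Myd88 on the opposite strand. Nor were the DNA sensor Aim2 (0.20, edgeR adjusted p = 0.738) and P2rx7, the ATP-gated channel that triggers NLRP3 (-0.15, adjusted p = 0.688). Il6 (0.11 ± 1.01, SE), Ptgs2 (1.00 ± 0.85) and Il1r1 (0.39 ± 0.82) were not called and had wide errors. Nos2 had 10 reads in sham and 2 in FPI microglia, and Nos2, Nlrc4 and Il33 were under the filter.

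**Figure D3:**
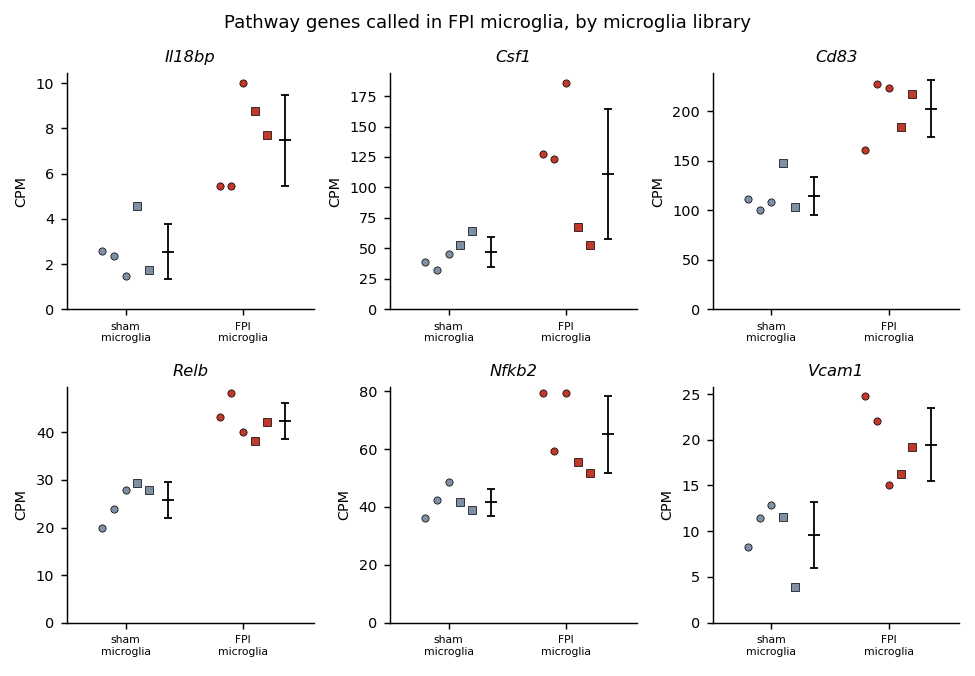
Levels in CPM of named pathway genes in the 10 microglia libraries, sham and FPI; squares are replicates 4 and 5, circles replicates 1 to 3, with the mean and SD to the right. Cd83, Il18bp, Nfkb2, Relb and Vcam1 lie higher in every FPI library than in any sham library, as did 2.11% of tested genes. Csf1 separates in replicates 1 to 3 but not in replicates 4 and 5.

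In astrocytes the named pathway genes overlapped between groups. Il33, an alarmin of the IL-1 family, was at 149 ± 72.5 CPM (SD, n = 5) in sham and 153 ± 70.9 CPM in FPI astrocytes, with a log2 fold change of 0.04 ± 0.37 (SE). The IL-1 receptor Il1r1 was at 13.1 and 13.2 CPM. The named genes with the highest log2 fold changes were Aim2 (1.16 ± 0.78, SE), Tnfrsf1b (0.69 ± 0.74), Relb (0.48 ± 0.38), Txnip (0.47 ± 0.33) and Myd88 (0.45 ± 0.37), and the lowest was Vcam1 (-0.26 ± 0.41). None of the 17 tested was called in edgeR (adjusted p = 0.999 for each), nor in DESeq2. Of all 13741 tested genes 1 was called in edgeR and 23 in DESeq2.

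Il1b, Tnf and Il1a were then compared with each other and with the immediate early and dissociation genes across the 10 microglia libraries, after the group means were removed, in 6 relations. Digestion at 37 °C is known to induce immediate early genes, Tnf and Il1b in microglia. Of the 14 such genes 0 were called between FPI and sham microglia, where 2.13% of all tested genes were called higher and 0.214% lower. Their sum fell into 2 separate sets by name series, so the values over 10 libraries span the series, and those within replicates 1 to 3 (6 libraries) are given beside them. The permutations over 10 libraries ran across both series. Their p-values therefore cannot separate a relation between libraries from the difference between the series. With Il1b their mean log2 level had r = 0.87 (permutation p = 0.00024, adjusted p = 0.00144) and rho = 0.87 (permutation p = 0.00204) over 10 libraries, r = 0.68 without the 2 farthest libraries, and r = 0.26 within replicates 1 to 3 (exact permutation p = 0.631). With the mean of each group within each series removed it was r = 0.84 over the 10 libraries, which include the 4 of replicates 4 and 5. There each group has 2 libraries, whose deviations mirror each other. FPI libraries 4 and 5 had 5.32 and 0.675 CPM of Il1b beside 2253 and 1585 CPM of the summed genes. With Tnf the mean log2 level of the immediate early and dissociation genes had r = 0.72 (permutation p = 0.0198, adjusted p = 0.05), rho = 0.81 (permutation p = 0.00724), r = 0.64 without the 2 farthest libraries, r = 0.84 within replicates 1 to 3 (exact permutation p = 0.025, adjusted p = 0.075), and r = 0.12 over the 10 libraries with the means of each group within each series removed. With Il1a it had r = 0.57 (permutation p = 0.0701), rho = 0.77 (permutation p = 0.0134), r = 0.31 without the 2 farthest libraries, r = 0.96 within replicates 1 to 3 (exact permutation p = 0.00556, adjusted p = 0.0333), and r = 0.53 with the means of each group within each series removed. The remaining relations were Il1b with Tnf (r = 0.67, permutation p = 0.0333, rho = 0.82, within replicates 1 to 3 r = -0.06), Il1b with Il1a (r = 0.58, permutation p = 0.0592, rho = 0.62, within r = 0.27) and Tnf with Il1a (r = 0.70, permutation p = 0.0265, rho = 0.73, within r = 0.74). The part of dissociation in the cytokine levels was not tested.

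**Figure D4:**
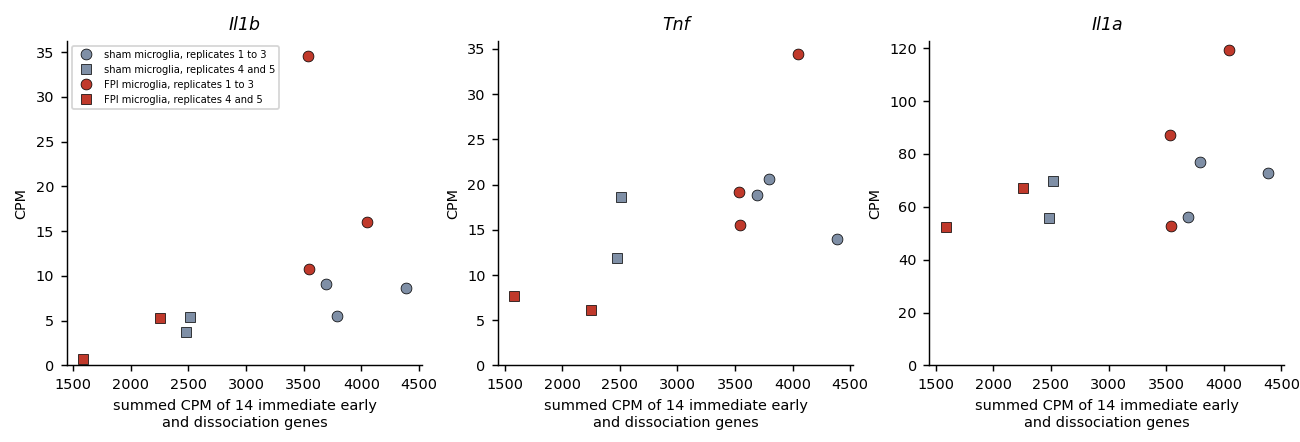
Summed level of 14 immediate early and dissociation genes (x axis, CPM) against the level of Il1b, Tnf and Il1a (y axis, CPM) in the 10 microglia libraries; squares are replicates 4 and 5, circles replicates 1 to 3. Replicates 1 to 3 lie at 3535 to 4387 CPM on the x axis and replicates 4 and 5 at 1585 to 2515 CPM, without overlap.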

How the data were processed

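Microglia and astrocytes were sorted from sham and FPI mice, and stranded total RNA libraries were sequenced. Per the labels and the study's methods, reads were aligned to GRCm38 with HISAT2 2.1.0, and featureCounts is named, without a role, in the submitters' processing notes. The authors deposited raw counts per gene as whole numbers, with no normalization, and whether counting used strand is not given in the sources used here. Groups follow the labels. The 10 genes and all lists were chosen with earlier results of these data known. Named genes are the 10, the called genes of each pathway list (at most 5 per list) and 16 pathway genes chosen by name. The 5 genes most like Il1b are also given.

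FPI and sham libraries were compared within a cell type by the quasi-likelihood test of edgeR 4.0.16 under R 4.3.3, after filterByExpr and TMM scaling, with p-values adjusted by Benjamini-Hochberg over all tested genes. SE is the log2 fold change over the root of F. All 20 libraries were fitted together for contrasts of the cell types, taking libraries as independent although 3 animals gave 1 of each cell type. FPI astrocyte libraries 2 and 5, which share an animal number, were also taken as independent in every main fit. With these 2 summed, 0 genes were called between FPI and sham astrocytes. A difference between effects was called at an adjusted p below 0.1. P-values measure the spread between these libraries. Relations used log2 CPM with 0.5 counts added (for the immediate early genes, the mean over the genes) and 100000 permutations, two-sided, or exact enumeration over 6 libraries. Floors (3 counts) and intervals (95%, exact) cover counting error only. The test was checked on simulated counts, with 100 genes changed by 1 and 100 by 2 on the log2 scale. Of the changes of 1, it recovered 69 in microglia, 28 in astrocytes and 6 for the difference between cell types. Of the changes of 2, it recovered 94, 77 and 45. Absence of a call in astrocytes or between cell types is thus weak evidence of no change. Alternatives were DESeq2 1.42.0, other normalizations and filters, fits with a replicate block or a term for the name series, fits of 1 series, and leaving out libraries; the test of the difference between series was chosen after seeing the data. Python 3.11.15 was used for tables.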

Additional observations from a re-analysis of the deposited data

Results flagged for a closer look

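Of 49 groups of 5 libraries examined, 1 had a library far from the others, and chance alone marks about 1 in 20. Cd83 in sham microglia was highest in library 4, at 147.5 CPM, against 99.9 to 112 CPM in the other 4. The FPI libraries of Cd83 (161 to 227 CPM) lay above it, and without it the log2 fold change was 0.94 (edgeR adjusted p = 0.000664).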

How the results depend on the processing

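Of the alternatives, DESeq2 gave Il1rn an adjusted p of 0.000152, and leaving out 1 library gave log2 fold changes of 2.95 to 3.83, with the call kept in all 10 fits (adjusted p 0.0998 without FPI library 2, edgeR). The 10 genes had 0 calls in microglia with at least 10 counts in every library (Il1rn was then not tested), in 1 fit of all 20 libraries, in replicates 1 to 3 alone and in replicates 4 and 5 alone. Between cell types 1 gene remained testable under the 10-count filter, and it was called (1). Pathway calls in microglia were 1 in the fit of all 20 libraries, 0 in replicates 4 and 5 alone and 3 to 6 with 1 library left out (3 without sham library 2). All genes called in microglia numbered 285, 402 in DESeq2, 177 without sham library 2 or FPI library 2, 423 without FPI library 3, 121 in the fit of all 20 libraries and 99 in replicates 4 and 5 alone. In astrocytes they numbered 1, 23 in DESeq2, 11 with the block and 53 in the fit of all 20. With the replicate number as a block, 1 of the 10 genes and 4 pathway genes were called in microglia (Il18bp and Vcam1 lost, adjusted p 0.140 and 0.108) and 0 in astrocytes. The labels do not say what same-numbered libraries share. Their deviations correlated at -0.05 to 0.11 in microglia. In astrocytes the correlation was -0.01 for number 2 and 0.21 to 0.42 for the other 4, with 3 of 5 numbers correlating best with their own. A pairing of astrocyte libraries by number is thus possible and was not tested. With the block Il18 in astrocytes was -0.49 (adjusted p 0.989, edgeR). Values that changed sign were, in replicates 4 and 5 alone, Il1a -0.0647, Il1b -0.60, Nlrp3 0.0043, Nfkbiz -0.0645, Tnfrsf1b 0.16, Aim2 -0.11 and Myd88 0.47, and in replicates 1 to 3 alone Tnf 0.37, Pycard -0.0079 and Il6 -0.62. Tnf was 0.0014 under the 10-count filter, and Il6 -0.32 with the block and -0.15 with a series term. In astrocytes Il33 was -0.00409 with all genes of at least 1 count, and Il1r1 -0.0348 there, -0.00399 under the 10-count filter, -0.0222 in the fit of all 20 and -0.0751 with FPI libraries 2 and 5 summed. Leaving out 1 library gave microglia ranges of -0.0689 to 0.22 for Casp1, -0.0324 to 0.29 for Il1a, -0.48 to 0.44 for Il6 and -0.47 to 0.19 for Tnf, and astrocyte ranges of -0.21 to 0.80 for Gsdmd, -0.0717 to 0.45 for Il18bp, -0.22 to 0.21 for Il1r1, -0.24 to 0.33 for Il33 and -0.0226 to 0.28 for Tnfrsf1a. Within replicates 1 to 3, r was -0.0557 for Il1b with Tnf, 0.27 for Il1b with Il1a, 0.26 for Il1b and 0.96 for Il1a with the immediate early level, and 0.31 for Il1a with that level without the 2 farthest libraries. The causes were not tested. Depth limits Il1rn in sham microglia and 8 of the 10 genes in astrocytes.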

Other observations

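Of the tested genes, those whose deviations from the group means were most like those of Il1b over the 10 microglia libraries were Sept5 (r = 0.97), Hepacam (r = 0.96), Usp6nl (r = 0.95), Ndufa12 (r = 0.94) and Mast4 (r = 0.94). Tnf stood at place 763 and Il1a at place 1263 in that order. These are descriptions over 10 libraries that share the name series, with the highest values picked from all tested genes.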
